A study of Homo sapiens with 20 samples.

Results

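The genes described here are PLAU, PLAUR, PLAT, SERPINE2, TFPI, TFPI2, F3, THBD and ANXA2, which act in plasminogen activation and in the start and control of coagulation. They were chosen by name, with earlier results of these data known. Each of the 9 was found by its Ensembl identifier among the 57500 genes listed in every library. All 9 passed the filter for weakly expressed genes in all 5 tests. RNA was sequenced from NTERT cells, an immortalized human keratinocyte line, in 4 groups of 5 replicates. WT cells and GCN2KO cells were each left unwounded or harvested 6 h after high-density wounding (HDW), in which pipet tips are drawn across the culture in crossing directions and leave many wound edges in a single culture. The cells were maintained in low-calcium keratinocyte medium. In the study's HDW method calcium and serum were raised before wounding, so that the cells began to differentiate and formed a sheet. The sequencing methods of the study do not say whether the unwounded cultures were treated alike. GCN2, encoded by EIF2AK4, is a protein kinase that phosphorylates eIF2α when amino acids run short. GCN2KO cells were an early-passage pool of CRISPR/Cas9-edited keratinocytes rather than a clone, so they can hold several edits, and an effect of the knockout cannot be told apart from other differences between the pool and the WT cells. The study describes its WT cells as carrying a control guide RNA. It calls the 5 samples of each group biological replicates.

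Plasmin, the protease that dissolves fibrin and helps to clear a path for migrating cells, is made from plasminogen by 2 activators. Urokinase (PLAU) acts mostly at the cell surface, bound to its receptor PLAUR, and tissue-type plasminogen activator (PLAT) acts best on fibrin. ANXA2, together with S100A10, holds plasminogen and PLAT at the cell surface, while SERPINE2 (protease nexin-1) is a secreted inhibitor of thrombin, urokinase and plasmin. Coagulation starts when tissue factor (F3) binds factor VII. TFPI inhibits the tissue factor complex, TFPI2 is a related Kunitz-type inhibitor that acts on plasmin and other proteases, and thrombomodulin (THBD) turns thrombin toward activation of protein C. In the epidermis, keratinocytes at a wound edge are known for making urokinase and its receptor, and tissue factor is made in the epidermis without wounding.

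The sequences upstream of F3 and TFPI2 are shown as examples of genes that rose after HDW in WT cells and rose less in GCN2KO cells. PLAUR and PLAT had the same pattern, and ANXA2 rose in WT cells only. Each run holds the 250 bases before the annotated start in RefSeq, from GRCh38.p14, read 5′ to 3′ on the minus strand, with each match to the AP-1 motif TGANTCA in capitals. The F3 window is chr1:94541760-94542009, and part of it lies in an exon of a non-coding RNA of the opposite strand. The TFPI2 window is chr7:93890754-93891003, and part of it lies in an exon of the opposite-strand non-coding gene TFPI2-DT.
F3: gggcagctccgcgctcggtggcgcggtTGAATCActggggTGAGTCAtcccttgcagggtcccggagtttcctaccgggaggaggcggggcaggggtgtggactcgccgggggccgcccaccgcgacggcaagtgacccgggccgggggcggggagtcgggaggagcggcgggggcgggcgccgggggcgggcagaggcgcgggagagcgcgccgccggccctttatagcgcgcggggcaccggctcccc
TFPI2: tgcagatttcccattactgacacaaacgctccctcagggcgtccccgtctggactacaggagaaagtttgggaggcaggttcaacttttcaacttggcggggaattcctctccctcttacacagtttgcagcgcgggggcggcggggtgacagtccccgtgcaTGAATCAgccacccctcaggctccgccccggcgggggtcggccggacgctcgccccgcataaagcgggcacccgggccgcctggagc
RefSeq windows were searched for 7 of the 9 genes, with 2 windows for PLAU and 2 for SERPINE2. None matched THBD. PLAT was not searched, because windows on its chromosome were left out for the 9 genes, so its motifs are unknown here. The AP-1 motif, whose 7 letters read the same on both strands, was present in 4 of the 7 genes and in 4 of their 9 windows. F3 had it at 223 to 217 and 210 to 204 bases before the start, and TFPI2 at 87 to 81. PLAUR had it at 186 to 180 bases and ANXA2 at 127 to 121 bases before the start, both as TGAGTCA. Of all 35116 windows, 6.57% held it. The EGR1 motif GCGNGGGCG was present in PLAUR, TFPI2 and F3, in 3 of the 9 windows, and in 8.41% of all windows. The Sp1 motif GGGCGG, which overlaps the EGR1 letters in TFPI2 and F3, was present in PLAU, SERPINE2, TFPI2, F3 and ANXA2. It was in 6 of the 9 windows and in 42.6% of all windows. The other motifs, searched on both strands, had no match in the windows of these genes. They were TEAD (GGAATG, 11.9% of all windows), CRE (TGACGTCA, 1.65%), the C/EBP-ATF composite (TGATGNAA, 3.14%), NF-kB (0.527%) and SMAD (CAGACA, 13.6%). A match describes letters in a window and does not show binding.

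**Figure D1:**
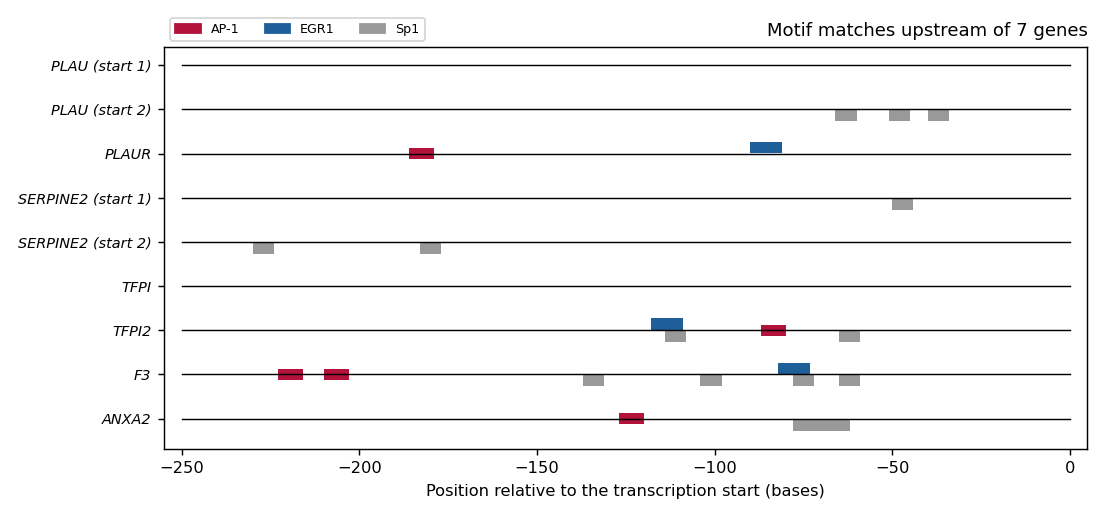
Motif matches in the 250 bases before each RefSeq start of 7 genes, with position relative to the start in bases on the horizontal axis and 1 line per window. Red boxes are AP-1 matches, blue boxes EGR1 and grey boxes Sp1. AP-1 matches stand in PLAUR, TFPI2, F3 and ANXA2.

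The libraries held 14083504 to 34611570 counts on genes, with the lowest median in WT unwounded cells (23685751) and the highest in WT HDW cells (34209033). Normalized read counts are raw counts divided by library size and TMM factors, relative to the mean of the 20 libraries. EIF2AK4 averaged 4355 ± 149 (SD, n = 5) in WT unwounded cells and 894 ± 61.8 (SD, n = 5) in GCN2KO unwounded cells, and its values in the GCN2KO groups did not overlap those in the WT groups. The 10 keratinocyte markers summed to 496042 to 758144 normalized read counts. They differed between the genotypes in both directions, with IVL, a protein of the cornified envelope, at 3126 ± 255 (SD, n = 5) in WT and 11072 ± 2637 (SD, n = 5) in GCN2KO unwounded cells, and COL17A1, a hemidesmosome collagen, at 82941 ± 2533 (SD, n = 5) and 32321 ± 3819 (SD, n = 5). In the same cells KRT5, a basal keratin, was higher in GCN2KO, at 329191 ± 23072 (SD) against 233782 ± 5393 (SD). KRT14, its basal partner, was lower, at 35134 ± 3755 (SD) against 63316 ± 1901 (SD). KRT1, a keratin of differentiating cells, was lower, at 11.2 ± 2.63 (SD) against 22.4 ± 6.34 (SD). Basal and differentiation markers thus each went in both directions. The part of these differences in the results below was not tested. Because THBD, PLAT and TFPI are also made by endothelium, its markers were looked at. The 6 endothelial markers summed to 36.1 to 93.6 normalized read counts, mostly ERG and KDR, and PECAM1 and CDH5 reached at most 5 and 9 raw counts in a library. The 7 fibroblast markers summed to 669 to 1043, mostly COL1A1, with COL1A2 and COL3A1 at no more than 5 and 2 raw counts. Melanocyte markers summed to 56.5 to 100.3 with TYR at 0, and leukocyte markers to 37.6 to 115.8, mostly CD68, with PTPRC at no more than 2 raw counts. In RNA from whole cultures, fewer cells of a type and less RNA per cell cannot be told apart.

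Groups were compared with edgeR's quasi-likelihood test over all genes that passed the filter, with Benjamini-Hochberg adjusted p-values. A gene rose or fell where its adjusted p was at most 0.05, and was a DE gene where the log2 fold change was also at least 1 in size. The interaction is the log2 response to HDW in GCN2KO cells minus that in WT cells, so a negative value is a lower response in GCN2KO cells. The 5 tests share groups: both genotype comparisons and both HDW comparisons reuse the same 4 sets of libraries, and the interaction uses all of them.

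After HDW in WT cells, 6 of the 9 genes rose (PLAUR, PLAT, SERPINE2, TFPI2, F3 and ANXA2), TFPI fell, and PLAU and THBD did not pass. Across all genes tested, 26.1% rose and 25.2% fell. PLAUR, PLAT, TFPI, TFPI2 and F3 were DE genes, 5 of 9, against 4.17% of all genes. After HDW in GCN2KO cells, PLAUR, PLAT, TFPI2 and F3 rose, none fell and none was a DE gene. In that comparison 11.9% of all genes rose, 10.8% fell and 0.671% were DE genes. Replicates varied more in it, with a common coefficient of variation beyond counting error of 0.108, against 0.0587 for HDW in WT cells. Numbers of passes in the HDW comparisons of the genotypes are therefore not directly comparable. The interaction was negative and passed for PLAUR, PLAT, TFPI2, F3 and ANXA2, and was positive and passed for TFPI, with PLAT and TFPI2 at least 1 in size. Over all genes, 11.2% passed with a positive interaction, 12.5% with a negative one, and 3.31% passed with a size of at least 1. The median interaction of the 9 genes was -0.59, and that of all genes -0.009. Since the 9 genes were chosen with earlier results of these data known, these shares and medians only describe them. Whether they respond more than other genes was not tested.

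Between GCN2KO and WT unwounded cells, 6 of the 9 genes were higher in GCN2KO (PLAUR, PLAT, SERPINE2, F3, THBD and ANXA2), PLAU and TFPI2 were lower, and TFPI did not pass. Here 33.4% of all genes were higher and 33.1% lower, so a pass was common in this comparison. PLAU, SERPINE2 and TFPI2 were DE genes, and 16.4% of all genes were. After HDW, SERPINE2, TFPI, F3 and THBD were higher in GCN2KO cells, PLAU, PLAT, TFPI2 and ANXA2 were lower, and PLAUR did not pass. In this comparison 35.9% of all genes were higher, 35.8% lower and 14.9% DE genes, and PLAU and TFPI2 were the DE genes of the 9. PLAT and ANXA2 were thus higher than WT in GCN2KO cells before wounding and lower after it. For ANXA2 the difference after HDW was small, at -0.15, and its call was lost in 4 of 10 fits without 1 sample.

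**Figure D2:**
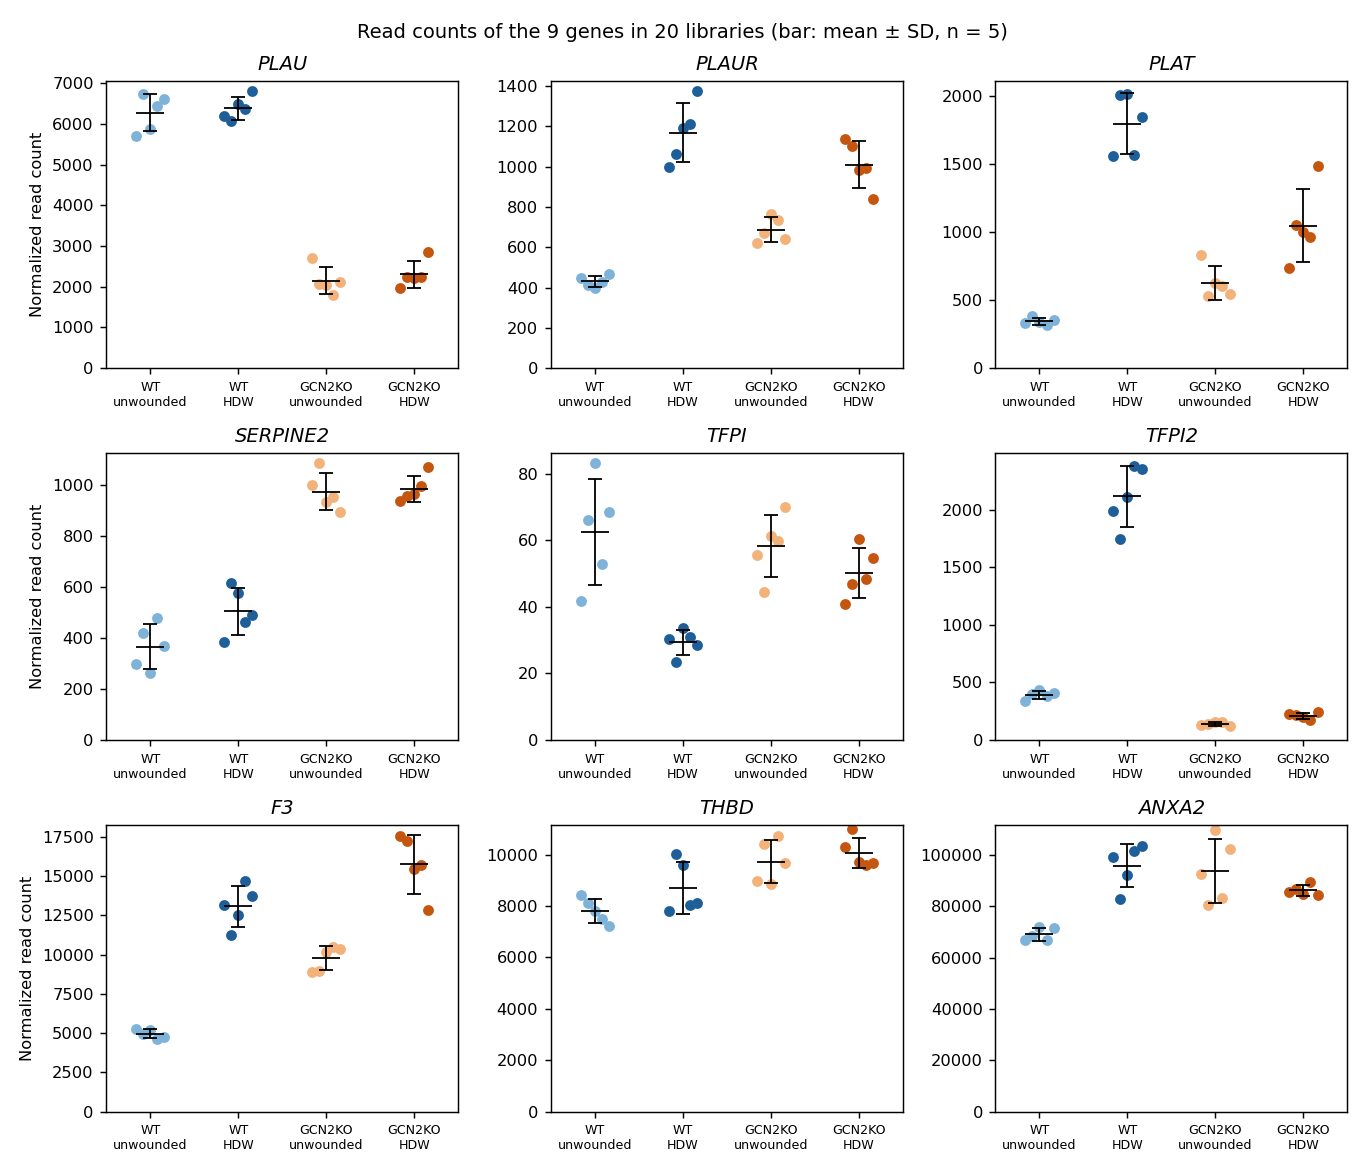
Normalized read counts of the 9 genes in each of the 20 libraries, 1 panel per gene with its own vertical axis from 0. Points are libraries, and black marks are the mean ± SD of 5. PLAT and TFPI2 are highest in WT HDW cells, F3 is lowest in WT unwounded cells, and PLAU is split by genotype.

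PLAU, on chromosome 10, 73909177 to 73917496 of GRCh38, encodes urokinase, the activator with the higher level per length of the pair in all 4 groups. Its 5 WT unwounded libraries held 5704, 6725, 5876, 6447 and 6623 normalized read counts, and the WT HDW libraries 6202, 6064, 6495, 6376 and 6803. Among GCN2KO libraries, the unwounded ones held 2717, 2071, 2039, 1808 and 2120.0, and GCN2KO HDW libraries 1972, 2244, 2212, 2250.3 and 2861. Every GCN2KO library was at or below 2861 and every WT library at or above 5704, with overlap between unwounded and HDW libraries of the same genotype. PLAU was 2.91-fold lower in GCN2KO than in WT unwounded cells, with a log2 fold change of -1.54 ± 0.095 (SE, adjusted p = 9.5e-10), and 2.77-fold lower after HDW, at -1.47 ± 0.078 (SE, adjusted p = 1.94e-09). HDW itself gave 0.023 ± 0.047 (SE, adjusted p = 0.718) in WT and 0.11 ± 0.11 (SE, adjusted p = 0.481) in GCN2KO cells, with intervals of 2 SE from -0.072 to 0.12 and from -0.11 to 0.34. The PLAU interaction was 0.077 ± 0.13 (SE, adjusted p = 0.709). Of the exonic bases of PLAU, 31.0% overlap the opposite-strand gene C10orf55, whose count did not exceed 75 in any library. Whether the counting used strand is not stated.

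PLAT encodes tissue-type plasminogen activator, and it responded to HDW in both genotypes. Its WT unwounded libraries held 332, 380.1, 338, 316 and 358 normalized read counts and its WT HDW libraries 1557, 2012, 2016, 1568 and 1844. In GCN2KO cells the unwounded libraries held 836, 529, 627, 601 and 543, and GCN2KO HDW libraries 739, 1053, 1004, 965 and 1484. The WT groups were far apart, the GCN2KO unwounded group lay between them, and the 2 GCN2KO groups overlapped through GCN2KO unwounded replicate 1 and GCN2KO HDW replicate 1. PLAT rose 5.24-fold after HDW in WT cells, with a log2 fold change of 2.39 ± 0.085 (SE, adjusted p = 2.6e-11). In GCN2KO cells it rose 1.69-fold, at 0.75 ± 0.16 (SE, adjusted p = 0.00657). GCN2KO HDW replicate 5 was the highest GCN2KO library for PLAT and PLAU and the lowest GCN2KO HDW library for F3. Without it the PLAT response in GCN2KO cells was 0.59 ± 0.13 (SE, adjusted p = 0.00778). PLAT was higher in GCN2KO than WT cells before wounding, at 0.87 ± 0.11 (SE, adjusted p = 4.81e-06), and lower after HDW, at -0.78 ± 0.14 (SE, adjusted p = 0.000209). The PLAT interaction was -1.65 ± 0.20 (SE, adjusted p = 2.14e-06), and -1.81 ± 0.17 (SE, adjusted p = 4.73e-08) without that library.

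PLAUR, the urokinase receptor, is anchored in the cell membrane by a glycolipid and lies on chromosome 19, 43646095 to 43670547. Its WT unwounded libraries held 449, 414, 399.7, 429 and 466 normalized read counts, and its WT HDW libraries 1001, 1062, 1192, 1210.4 and 1376. GCN2KO unwounded libraries held 623, 673, 766, 734 and 643, and GCN2KO HDW libraries 1137, 1103, 983, 991 and 838. The unwounded genotypes did not overlap and neither did unwounded and HDW libraries of a genotype, while the 2 HDW groups overlapped. PLAUR rose after HDW by 1.43 ± 0.08 (SE, adjusted p = 1.77e-09) in WT and by 0.56 ± 0.088 (SE, adjusted p = 0.0012) in GCN2KO cells on the log2 scale. It started higher in GCN2KO cells, at 0.68 ± 0.078 (SE, adjusted p = 1.16e-06) against WT. After HDW the difference was -0.21 ± 0.091 (SE, adjusted p = 0.0557), which did not pass, with an interval of 2 SE from -0.39 to -0.024. Its interaction was -0.88 ± 0.12 (SE, adjusted p = 1.63e-05). PLAU, the ligand, did not pass for HDW in either genotype, and the receptor passed in both.

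ANXA2 (chromosome 15, 60347134 to 60402883), a calcium-dependent membrane protein, had the most counts of the 9 genes. Among WT libraries, the unwounded ones held 66848, 68617, 71984, 66881 and 71526 normalized read counts, and WT HDW libraries 99403, 82943, 92214, 101495 and 103432. Among GCN2KO libraries, the unwounded ones held 92502, 80608, 109710.0, 83320.1 and 102399, and GCN2KO HDW libraries 85578, 86945, 84713, 89354 and 84408. The WT unwounded libraries were all below those of the other 3 groups, which overlapped one another. ANXA2 rose after HDW in WT cells, at 0.47 ± 0.053 (SE, adjusted p = 2.93e-06), and had -0.11 ± 0.084 (SE, adjusted p = 0.36) in GCN2KO cells. It was higher in GCN2KO than in WT unwounded cells, at 0.44 ± 0.088 (SE, adjusted p = 0.000339). After HDW it was lower in GCN2KO cells, at -0.15 ± 0.057 (SE, adjusted p = 0.0268), a call that was lost when WT HDW replicate 1, 4 or 5 or GCN2KO HDW replicate 3 was left out, with adjusted p of 0.0609 to 0.0704. The interaction was -0.59 ± 0.11 (SE, adjusted p = 0.000254). Reads of ANXA2 that match its processed pseudogenes equally well would not have been counted, since only uniquely mapped reads were used, so its level is uncertain to that extent.

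S100A10, the light chain that pairs with ANXA2 and binds plasminogen, was named for that role whatever its values. Normalized read counts of S100A10 averaged 14606 ± 914 (SD, n = 5) in WT unwounded cells, 20732 ± 2001 (SD, n = 5) in WT HDW cells, 14039 ± 936 (SD, n = 5) in GCN2KO unwounded cells and 14844 ± 328 (SD, n = 5) in GCN2KO HDW cells. S100A10 rose after HDW in WT cells, at 0.50 ± 0.062 (SE, adjusted p = 7.14e-06), and gave 0.091 ± 0.061 (SE, adjusted p = 0.29) in GCN2KO cells. Its interaction was -0.43 ± 0.091 (SE, adjusted p = 0.00138), of the same sign as that of ANXA2. Before wounding, S100A10 had -0.053 ± 0.069 (SE, adjusted p = 0.511) between genotypes, while ANXA2 was higher in GCN2KO cells. PLGRKT, a membrane receptor for plasminogen, was named on the same ground. It was higher in GCN2KO cells unwounded, at 0.89 ± 0.13 (SE, adjusted p = 1.25e-05), and after HDW, at 0.51 ± 0.11 (SE, adjusted p = 0.000568). PLGRKT had -0.48 ± 0.13 (SE, adjusted p = 0.019) after HDW in GCN2KO cells, a call that was lost without GCN2KO unwounded replicate 5 (adjusted p = 0.0545) or GCN2KO HDW replicate 3 (adjusted p = 0.0526), and its ranges in those groups overlapped. It had -0.12 ± 0.097 (SE, adjusted p = 0.314) in WT cells, and its interaction of -0.37 ± 0.17 (SE, adjusted p = 0.124) did not pass.

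SERPINE2 (chromosome 2, 223975045 to 224039318) was higher in GCN2KO cells with and without wounding. WT unwounded libraries held 298, 421, 263, 478 and 370.1 normalized read counts, and WT HDW libraries 384, 616, 577, 464 and 489.5. In GCN2KO cells the unwounded libraries held 1002, 1087, 936, 954 and 897, and GCN2KO HDW libraries 940.0, 959.5, 968, 996 and 1072. All GCN2KO libraries were above all WT libraries, and unwounded and HDW libraries overlapped in both genotypes. SERPINE2 was 2.65-fold higher in GCN2KO unwounded cells, at 1.41 ± 0.13 (SE, adjusted p = 6.94e-08), and 1.95-fold higher after HDW, at 0.96 ± 0.10 (SE, adjusted p = 1.04e-06). HDW in WT cells gave 0.45 ± 0.15 (SE, adjusted p = 0.0191), and without WT unwounded replicate 3, the lowest of its group, the value was 0.34 with an adjusted p of 0.0561, which no longer passed. HDW in GCN2KO cells gave 0.03 ± 0.07 (SE, adjusted p = 0.788). The interaction of -0.44 ± 0.17 (SE, adjusted p = 0.0662) did not pass, and passed without WT unwounded replicate 4 at -0.57 (adjusted p = 0.0149) and without WT HDW replicate 1 at -0.52 (adjusted p = 0.0225).

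F3, tissue factor (chromosome 1, 94529173 to 94541759), had the highest level per length of the 4 coagulation genes F3, TFPI, TFPI2 and THBD after HDW in both genotypes. Among WT libraries, the unwounded ones held 5260.3, 4971, 5216, 4654 and 4759 normalized read counts, and WT HDW libraries 13173, 11234, 12528, 14674 and 13721. GCN2KO unwounded libraries held 8884, 8953, 10151, 10454 and 10377, and GCN2KO HDW libraries 17539, 17209, 15435, 15724 and 12834. The WT unwounded, GCN2KO unwounded and WT HDW groups followed each other upward without overlap, and the GCN2KO HDW group overlapped only WT HDW. F3 rose 2.62-fold after HDW in WT cells, at 1.39 ± 0.062 (SE, adjusted p = 2.29e-10), and 1.62-fold in GCN2KO cells, at 0.70 ± 0.087 (SE, adjusted p = 0.000304). GCN2KO cells had 1.97-fold more F3 mRNA before wounding, at 0.98 ± 0.07 (SE, adjusted p = 4.75e-09), just short of the DE gene threshold for size, which it passed without GCN2KO unwounded replicate 1, at 1.01, or replicate 2, at 1.004. After HDW they had 0.27 ± 0.084 (SE, adjusted p = 0.0102), and 0.34 ± 0.066 (SE, adjusted p = 0.000351) without GCN2KO HDW replicate 5. The F3 interaction was -0.71 ± 0.11 (SE, adjusted p = 6.7e-05), so the genotypes were closer after HDW than before it.

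TFPI2 (chromosome 7, 93885396 to 93890753) had the largest difference between genotypes after HDW of the 9 genes. WT unwounded libraries held 336, 403, 429.9, 381 and 409.6 normalized read counts, and WT HDW libraries 1992, 1745, 2107, 2381 and 2357. Among GCN2KO libraries, the unwounded ones held 132, 138, 159.6, 152 and 119.9, and GCN2KO HDW libraries 228, 217, 196, 171 and 238. None of the 4 groups overlapped another, and every GCN2KO HDW library was below every WT unwounded library. TFPI2 rose 5.35-fold after HDW in WT cells, at 2.42 ± 0.085 (SE, adjusted p = 2.6e-11). In GCN2KO cells it rose 1.51-fold, at 0.60 ± 0.11 (SE, adjusted p = 0.00311). It was 2.79-fold lower in GCN2KO than in WT cells before wounding, at -1.48 ± 0.098 (SE, adjusted p = 2.17e-09), and 9.96-fold lower after HDW, at -3.32 ± 0.10 (SE, adjusted p = 2.03e-11). The interaction was -1.84 ± 0.14 (SE, adjusted p = 3.85e-09). F3 and TFPI2, whose upstream windows are printed above, both rose after HDW in WT cells, but GCN2KO cells started with more F3 and with less TFPI2 than WT cells.

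TFPI (chromosome 2, 187464230 to 187565760), the inhibitor of the tissue factor complex, was scarce, with 21 to 83 raw counts per library, so its values carry the most counting error of the 9 genes. Among WT libraries, the unwounded ones held 41.7, 66.0, 83.3, 53.0 and 68.4 normalized read counts, and WT HDW libraries 30.3, 23.6, 33.8, 30.9 and 28.5. In GCN2KO cells the unwounded libraries held 55.7, 44.5, 61.4, 59.7 and 70.1, and GCN2KO HDW libraries 40.9, 46.8, 60.4, 48.5 and 54.6. The WT HDW libraries were below all others, and the other 3 groups overlapped. TFPI fell after HDW in WT cells, at -1.11 ± 0.18 (SE, adjusted p = 8.33e-05), or -0.99 without WT unwounded replicate 3, and gave -0.22 ± 0.15 (SE, adjusted p = 0.294) in GCN2KO cells. It was higher in GCN2KO than WT cells after HDW, at 0.77 ± 0.15 (SE, adjusted p = 0.000302), and had -0.094 ± 0.17 (SE, adjusted p = 0.648) before wounding. The TFPI interaction was 0.87 ± 0.23 (SE, adjusted p = 0.00829), the one positive value among the 6 that passed. TFPI and TFPI2 thus moved in opposite directions after HDW in WT cells.

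THBD (chromosome 20, 23045633 to 23049672), the thrombin cofactor for protein C activation, differed little between groups, with no log2 difference above 0.32 in size among the 4 pairwise comparisons. Its libraries ranged from 7208 to 8418 normalized read counts in WT unwounded, 7822 to 10032 in WT HDW, 8857 to 10720.0 in GCN2KO unwounded and 9603 to 10979 in GCN2KO HDW cells. The GCN2KO unwounded libraries were above the WT unwounded ones, and the HDW groups overlapped. THBD was higher in GCN2KO cells by 0.32 ± 0.073 (SE, adjusted p = 0.00105) unwounded and 0.21 ± 0.07 (SE, adjusted p = 0.0169) after HDW on the log2 scale. HDW gave 0.16 ± 0.069 (SE, adjusted p = 0.0671) in WT cells, which did not pass, with an interval of 2 SE from 0.021 to 0.30, and it passed without WT unwounded replicate 1 (adjusted p = 0.0419) or WT HDW replicate 1 (adjusted p = 0.0267) or 4 (adjusted p = 0.0429). HDW gave 0.059 ± 0.073 (SE, adjusted p = 0.585) in GCN2KO cells, and the interaction was -0.11 ± 0.10 (SE, adjusted p = 0.466).

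**Figure D3:**
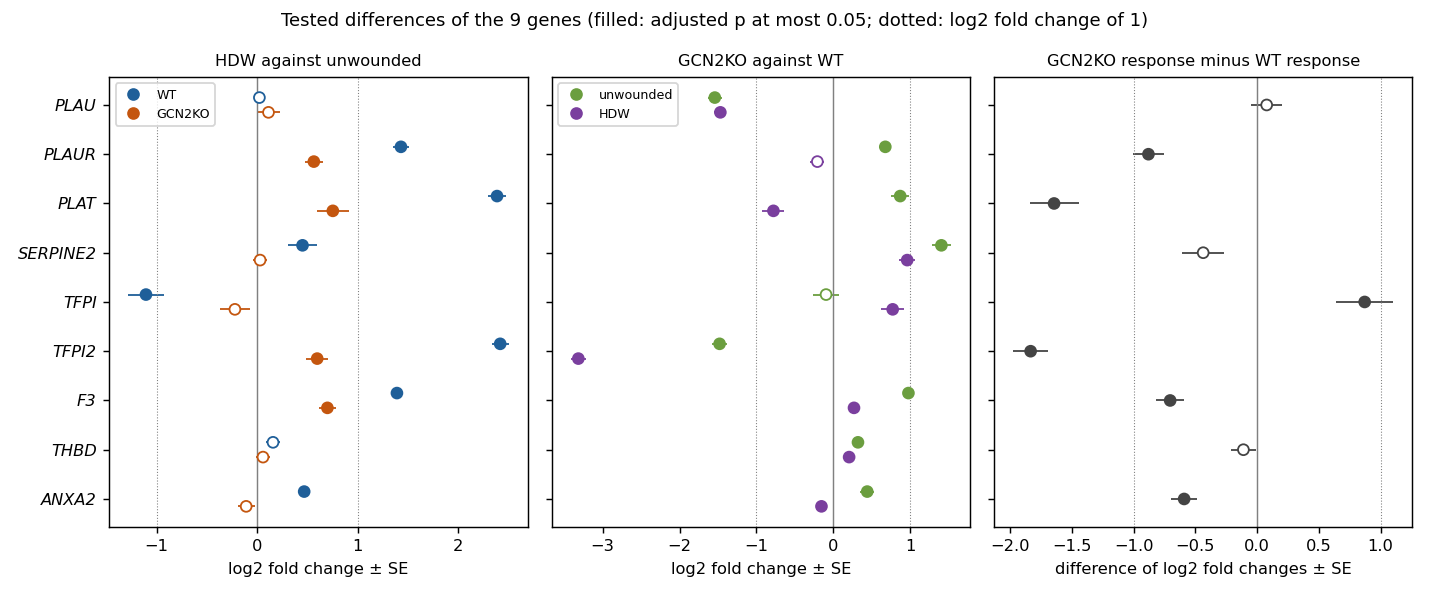
Log2 fold changes ± SE of the 9 genes for HDW against unwounded (left), GCN2KO against WT (middle) and the interaction (right). Filled points have an adjusted p of at most 0.05, and dotted lines mark a log2 fold change of 1. TFPI2 reaches -3.32 for GCN2KO against WT after HDW, and TFPI has the one filled interaction above 0, at 0.87.

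Levels between genes were compared as RPKM, which divides reads by exon length and library size, over the union of each gene's exons. ANXA2 was the highest of the 9 in all 4 groups, from 208 ± 7.42 (SD) RPKM in WT unwounded to 288 ± 25.2 (SD) in WT HDW cells, and TFPI the lowest, at 0.0874 ± 0.0112 (SD) to 0.186 ± 0.0470 (SD) RPKM. In WT unwounded cells the order below ANXA2 was PLAU at 74.0 ± 5.40 (SD), THBD at 67.2 ± 4.15 (SD) and F3 at 59.9 ± 3.24 (SD) RPKM, followed by TFPI2 at 5.58 ± 0.511 (SD), PLAUR at 3.37 ± 0.206 (SD), PLAT at 1.54 ± 0.111 (SD) and SERPINE2 at 1.42 ± 0.340 (SD) RPKM. The levels of PLAT and SERPINE2 lay within their spread there. After HDW in WT cells F3 was second at 157 ± 15.6 (SD) RPKM, and PLAU at 75.4 ± 3.35 (SD) and THBD at 75.1 ± 8.70 (SD) RPKM were within their spread. TFPI2 reached 30.1 ± 3.78 (SD) RPKM in those cells, and PLAUR at 9.12 ± 1.14 (SD) and PLAT at 8.06 ± 1.02 (SD) RPKM were again within their spread. In GCN2KO cells PLAU ranked below THBD, at 25.4 ± 3.99 (SD) RPKM unwounded and 27.2 ± 3.89 (SD) after HDW, and TFPI2 ranked between TFPI and the rest, at 1.997 ± 0.226 (SD) and 2.99 ± 0.384 (SD) RPKM. With the longest transcript as the length, PLAUR exceeded TFPI2 and F3 exceeded THBD in WT unwounded cells, and PLAT exceeded SERPINE2 in GCN2KO unwounded cells.

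**Figure D4:**
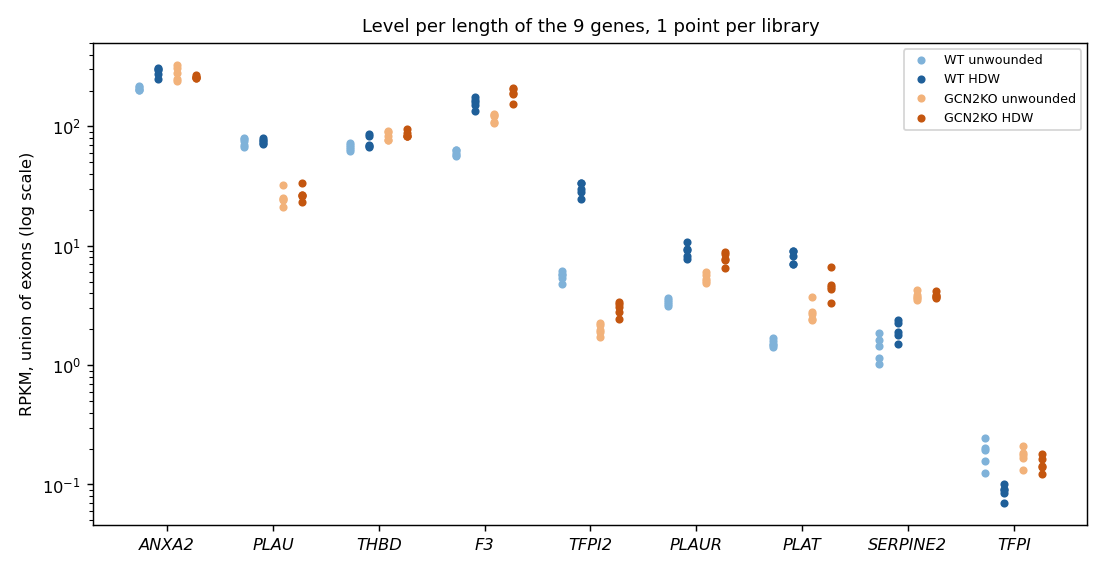
RPKM of the 9 genes per library on a log axis, coloured by group, in the order of their WT unwounded level. ANXA2 lies above and TFPI below the other genes in each group. TFPI2 has the widest split between groups, from a mean of 1.997 RPKM in GCN2KO unwounded to 30.1 in WT HDW cells.

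A further 57 genes of the plasminogen and coagulation systems and the protease-activated receptors were looked up as a list. Of these, 25 were too weakly expressed for any test, with at most 14 counts in a library, and they included plasminogen itself (PLG), prothrombin (F2), factor VII (F7), factor X (F10) and the fibrinogen chains FGA, FGB and FGG. After HDW in WT cells, 13 of 32 tested genes rose and 11 fell, with 3 DE genes, and their median log2 fold change was 0.12 against -0.002 for all genes. In GCN2KO cells 4 of 31 rose and 3 fell after HDW, with 1 DE gene, and the median was -0.03 against -0.001. Each of the 3 that fell, PLGRKT, F8 and PROCR, ceased to pass in 2 to 6 of 10 fits without 1 sample, and F8 and PROCR are named here after their values were seen. The interaction was positive and passed for 4 and negative for 7 of 32. In GCN2KO against WT, 15 were higher and 11 lower in unwounded cells, with 10 DE genes, and 11 were higher and 16 lower after HDW, with 3 DE genes. The shares of all genes given above for each comparison are the background of these counts.

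The listed genes with the largest interactions were a serpin and a lipoprotein receptor. SERPINB2, plasminogen activator inhibitor 2, averaged, in normalized read counts, 1036 ± 85.6 (SD, n = 5) in WT unwounded, 8909 ± 1615 (SD, n = 5) in WT HDW, 2775 ± 711 (SD, n = 5) in GCN2KO unwounded and 6673 ± 1514 (SD, n = 5) in GCN2KO HDW cells. SERPINB2 rose after HDW in WT cells, at 3.10 ± 0.11 (SE, adjusted p = 2.6e-11), and in GCN2KO cells, at 1.28 ± 0.18 (SE, adjusted p = 0.000552), with an interaction of -1.84 ± 0.23 (SE, adjusted p = 2.81e-06). VLDLR, which takes up protease and inhibitor complexes, rose in WT cells at 1.23 ± 0.097 (SE, adjusted p = 6.84e-08), had -0.20 ± 0.087 (SE, adjusted p = 0.108) in GCN2KO cells and an interaction of -1.45 ± 0.14 (SE, adjusted p = 6.21e-08). ANXA5, an annexin that covers the phosphatidylserine on which clotting factors assemble, was higher in GCN2KO unwounded cells at 1.38 ± 0.088 (SE, adjusted p = 1.37e-09) and had an interaction of -1.05 ± 0.11 (SE, adjusted p = 1.5e-07). These genes, like PLAUR, PLAT, TFPI2, F3 and ANXA2, had a smaller response to HDW in GCN2KO than in WT cells. They were named for the size of their differences, and 4 of the 11 list genes whose interaction passed had a positive one. Like ANXA5, SERPINB2 and VLDLR were already higher in GCN2KO unwounded cells. The values were 1.43 ± 0.14 (SE, adjusted p = 1.35e-07) for SERPINB2 and 1.03 ± 0.11 (SE, adjusted p = 6.64e-07) for VLDLR.

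**Figure D5:**
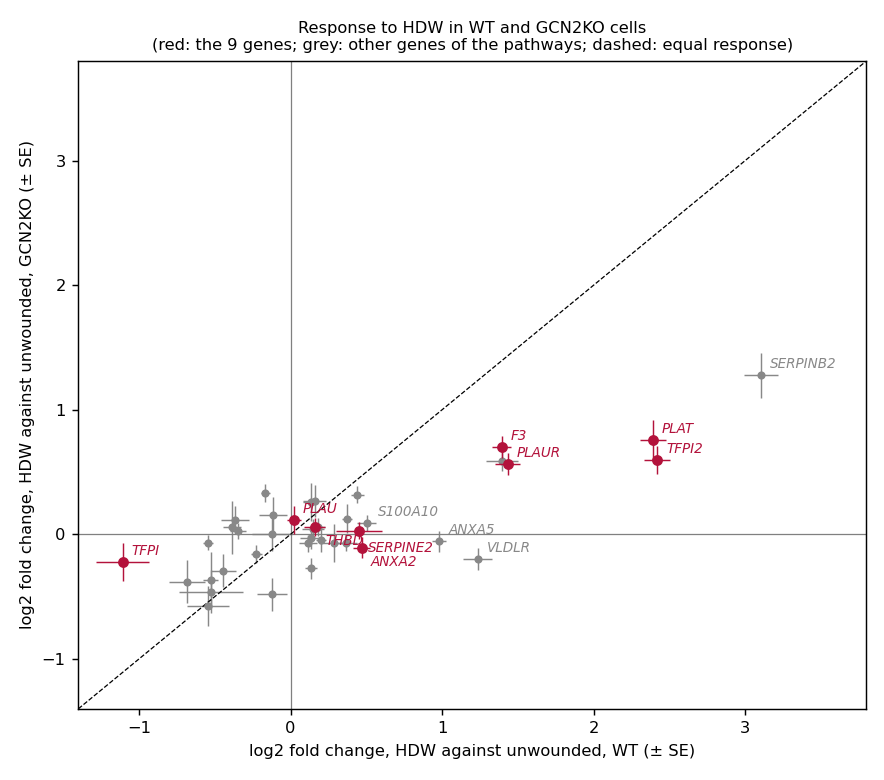
Log2 fold change after HDW in WT cells (horizontal) and in GCN2KO cells (vertical), each ± SE, for the 9 genes in red and the tested genes of the list in grey. The dashed line marks an equal response. PLAT (2.39 in WT, 0.75 in GCN2KO) and TFPI2 (2.42 and 0.60) lie below the line, and SERPINB2 is the list gene farthest to the right.

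Other listed genes were DE genes between the genotypes. MRC2, a collagen receptor that can associate with PLAUR, was lower in GCN2KO unwounded cells at -2.83 ± 0.11 (SE, adjusted p = 9.02e-12) and after HDW at -2.57 ± 0.13 (SE, adjusted p = 9.87e-10), and 10.3% of its exonic bases overlap other genes. PROC, which encodes the protein C that THBD helps to activate, was lower at -2.42 ± 0.21 (SE, adjusted p = 3.89e-08) unwounded and -1.70 ± 0.25 (SE, adjusted p = 2.76e-05) after HDW, with 5 to 63 raw counts per library. PROS1, the protein C cofactor protein S, was lower at -1.03 ± 0.11 (SE, adjusted p = 4.64e-07) unwounded, and SERPINF2, the plasmin inhibitor α2-antiplasmin, was lower at -1.19 ± 0.14 (SE, adjusted p = 2.28e-06). SERPINI1, neuroserpin, an inhibitor of PLAT, was higher at 1.12 ± 0.21 (SE, adjusted p = 0.000197) unwounded and 1.16 ± 0.16 (SE, adjusted p = 2e-05) after HDW. MCFD2, which carries factors V and VIII out of the endoplasmic reticulum, was higher at 1.07 ± 0.086 (SE, adjusted p = 1.9e-08), and P4HB, a protein disulfide isomerase linked to tissue factor activity, at 1.30 ± 0.086 (SE, adjusted p = 2.08e-09), both unwounded.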

How the data were processed

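RNA of 20 NTERT samples was sequenced as paired-end reads of 150 bp. The authors removed adapters and low-quality bases (Trimmomatic), mapped read pairs onto GRCh38 (STAR) and assigned those that mapped uniquely to the exons of genes (featureCounts). What they deposited are unnormalized, unfiltered read counts, 1 table per library. The annotation release, the strand setting and the handling of overlapping genes are not given in the sources used here. Identifiers were matched to GENCODE release 44 (56410 of 57500 genes).

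The 14083504 to 34611570 counts per library were tested with edgeR 4.0.16 in R 4.3.3 (glmQLFit, glmQLFTest, TMM, filterByExpr with a minimum count of 10 and a minimum total of 15) over all genes. Pairwise tests used the 10 samples of their groups and the interaction all 20. The study's thresholds were an adjusted p of 0.05 and a log2 fold change of 1. SE is the log2 fold change divided by the square root of the F statistic. Python 3.11.15, numpy 2.4.6, pandas 2.3.3 and matplotlib 3.10.9 made tables and figures. The pipeline was tested on simulated data.

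The 9 genes and the lists were chosen with earlier results of these data known. Named genes are the 9, EIF2AK4, S100A10, PLGRKT and the listed genes that were DE genes in at least 1 test. Markers and genes too weak for a test are named besides, and some listed genes and markers are counted but not reported here by name. Motifs were searched in the 250 bases before each RefSeq start (GRCh38.p14), except that windows on chromosome 8, where PLAT lies, were left out for the 9 genes. As alternatives, calls were refitted with DESeq2 1.42.0, with its size factors or library size alone in edgeR, without the gene filter, for genes with a mean of 50 counts or more, in one fit of all 20 samples, with the replicate block and without each sample. For levels, the longest transcript replaced the union of exons.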

Additional observations from a re-analysis of the deposited data

Results flagged for a closer look

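The response to HDW differed between WT and GCN2KO cells, by the interaction term of edgeR's quasi-likelihood test over all 20 samples, for 6 of the 9 genes. The GCN2KO response minus the WT response was -0.88 for PLAUR (edgeR adjusted p = 1.63e-05), -1.65 for PLAT (edgeR adjusted p = 2.14e-06), -1.84 for TFPI2 (edgeR adjusted p = 3.85e-09), -0.71 for F3 (edgeR adjusted p = 6.7e-05) and -0.59 for ANXA2 (edgeR adjusted p = 0.000254), all on the log2 scale. It was 0.87 for TFPI (edgeR adjusted p = 0.00829). Over the fits that left out 1 of the 20 samples, the value ranged from -1.81 to -1.53 for PLAT, from -1.90 to -1.78 for TFPI2 and from 0.75 to 0.96 for TFPI, and the call held in each. Among the 36 combinations of gene and group of 5, no sample stood apart from the rest by Dixon's criterion of 0.71. That criterion looks for 1 sample and cannot show a group split into sets. Over all genes compared, pairs of libraries were also described by chi-square per degree of freedom. In GCN2KO unwounded cells it was 6.76 for replicates 2 and 4, 8.44 for 3 and 5, and 41.2 to 49.4 between these sets. GCN2KO HDW replicate 5 had 15.99 to 40.8 with the others, which had 2.48 to 6.98 among themselves. How far the 9 genes follow these splits was not tested.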

How the results depend on the processing

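The number of the 9 genes that passed stayed within 1.5 times its value in all 94 refits over the 5 tests, and of their refitted log2 fold changes 815 kept direction and side of the threshold, 14 came to pass, 7 ceased to and 7 changed sign. Each that changed sign was close to 0 and did not pass: TFPI between unwounded genotypes without WT unwounded replicate 3 (0.023, lowest -0.19), PLAU after HDW in WT cells with library size alone (-0.017) or without WT unwounded replicate 1 (-0.0085) or 3 (-0.0035, highest 0.048), SERPINE2 after HDW in GCN2KO cells without GCN2KO unwounded replicate 5 (-0.00028) or GCN2KO HDW replicate 5 (-0.0034, highest 0.067), and the PLAU interaction without GCN2KO HDW replicate 5 (-0.013, highest 0.17), where the lowest or highest is that over the fits without 1 sample. For HDW in GCN2KO cells, 3586 genes passed, against 5576 with all 20 samples in one fit, 2121 with the replicate block and from 2070.0 to 4517 without 1 sample, with 2217, 2137 and 2070.0 without GCN2KO unwounded replicate 5, GCN2KO HDW replicate 2 and GCN2KO HDW replicate 3. The 7 list genes that passed there became 4 with the replicate block and from 4 to 10 without 1 sample, with 4 without GCN2KO HDW replicate 3. The cause was not tested. Replicate numbers were not treated as pairs, since deviations of same-numbered samples correlated by -0.325 to 0.133. With the replicate block THBD passed after HDW in WT cells at 0.15 (adjusted p = 0.0347), and it changed no other call of the 9 genes. PLGRKT, F8 and PROCR ceased to pass after HDW in GCN2KO cells with the replicate block (adjusted p = 0.0544, 0.0636 and 0.0695). For GCN2KO against WT after HDW, PLAUR passed with no filter (adjusted p = 0.0121) and in the one fit (adjusted p = 0.0324), and without WT HDW or GCN2KO HDW replicate 1 or 2 (adjusted p from 0.0198 to 0.0478), and ANXA2 ceased to with library size alone (adjusted p = 0.0593) and in the one fit (adjusted p = 0.0731). With no filter THBD after HDW in WT cells (adjusted p = 0.00407) and the SERPINE2 interaction (adjusted p = 0.0135) passed. The longest transcript moved 27 of 36 levels by more than their spread. Depth limits TFPI most.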

Other observations

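Ratios of counts within a library, chosen after the values were seen and given without a test, describe the balance of paired genes, and as ratios of counts they do not correct for gene length. The ratio of F3 to TFPI2 counts was 12.8 ± 1.63 (SD, n = 5) in WT unwounded, 6.20 ± 0.330 (SD, n = 5) in WT HDW, 70.2 ± 9.35 (SD, n = 5) in GCN2KO unwounded and 76.2 ± 13.9 (SD, n = 5) in GCN2KO HDW libraries. It fell between the 2 WT groups without overlap (11.6 to 15.7 and 5.82 to 6.61), and the GCN2KO groups overlapped (63.6 to 86.6 and 53.8 to 92.2). The ratio of PLAT to PLAU counts was 0.055 ± 0.0037 (SD, n = 5) in WT unwounded, 0.282 ± 0.038 (SD, n = 5) in WT HDW, 0.292 ± 0.034 (SD, n = 5) in GCN2KO unwounded and 0.449 ± 0.053 (SD, n = 5) in GCN2KO HDW libraries. WT HDW and GCN2KO unwounded libraries overlapped in it, with PLAT and PLAU both lower in the latter. The ratio of PLAUR to PLAU counts was 0.069 ± 0.0063 (SD, n = 5), 0.182 ± 0.015 (SD, n = 5), 0.328 ± 0.068 (SD, n = 5) and 0.449 ± 0.10 (SD, n = 5) in the same order of groups.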
